A study of Mus musculus with 5 samples.

Results

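Gene levels in C3H/HeJ bone marrow-derived macrophages exposed to lipopolysaccharide (LPS) for 2 h were set against those of unexposed macrophages, with 1 array for each. The unexposed cells (0 h) were macrophages grown from C3H/HeJ bone marrow with human CSF-1, a growth factor of the macrophage lineage. The 2 h cells were the same kind of culture given 10 µg per ml of LPS from S. minnesota. Every array of the series, 5 in all, carried macrophage RNA in one channel and, in the other, RNA of entire C57BL6/J embryos aged 17.5 days. A level is therefore a log ratio of macrophage to embryo RNA, and the whole embryo, which holds many cell types, is the scale on which each gene is read. All genes with 1 probe or more measured on both arrays were kept, which gave 8941 genes from 14488 named probes, and 3212 of them had 2 or more probes. Levels were centred by subtracting, from each array, its median over the 19424 probes with a value on both, and the probes of a gene were averaged.

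LPS is a cell wall component of Gram-negative bacteria that macrophages sense through Tlr4, with Cd14 and Md-2 as partners. The receptor signals through Myd88 to NF-kB and the MAP kinases, which switch on immediate early factors and inflammatory cytokines, and through Trif to IRF3, which starts an interferon response. C3H/HeJ mice carry a point mutation in Tlr4 that makes their macrophages respond poorly to LPS, so this strain serves as a hyporesponsive model.

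With 1 array per group there was no test and no p-value, and no difference below has a replicate check. The deposited values are log ratios whose base is not stated. They were read as base 10, so that 1 log unit would be 10-fold and the size rule used throughout, 2-fold, would be 0.30 log units. "Higher" and "lower" below mean past that size at 2 h against 0 h and nothing more. For many genes with several probes the SD between them is given. Those probes shared the same culture, labelling and hybridisation, so this SD holds no spread between cells. The dye of the numerator is not stated either. Globin probes, 55 in all, had a median level of -1.50 at 0 h and -1.70 at 2 h, and 13 measured macrophage markers had medians of 0.55 and 0.95, so a positive value was taken as more RNA in macrophages, which is the likely direction.

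Genes of the immediate early, NF-kB, interferon-stimulated or IRF groups that were higher at 2 h include 4 whose promoters are shown. These promoters are printed so that motifs of transcription factors can be read in them. Each runs from 250 bases before to 50 after a RefSeq transcription start in GRCm38.p6, 5′ to 3′ on the gene's strand, and capitals mark matches to the motifs searched. Irf7 lies on the minus strand at chr7:141266375-141266674, Oas1a on the minus strand at chr5:120907476-120907775, Egr2 on the plus strand at chr10:67537680-67537979 and Nfkbie on the plus strand at chr17:45555450-45555749.
Irf7: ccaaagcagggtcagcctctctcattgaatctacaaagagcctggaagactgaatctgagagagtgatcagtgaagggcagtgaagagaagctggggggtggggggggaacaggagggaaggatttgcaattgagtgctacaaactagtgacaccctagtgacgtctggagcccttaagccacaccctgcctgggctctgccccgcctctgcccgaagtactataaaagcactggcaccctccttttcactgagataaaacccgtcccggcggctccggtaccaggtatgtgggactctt
Oas1a: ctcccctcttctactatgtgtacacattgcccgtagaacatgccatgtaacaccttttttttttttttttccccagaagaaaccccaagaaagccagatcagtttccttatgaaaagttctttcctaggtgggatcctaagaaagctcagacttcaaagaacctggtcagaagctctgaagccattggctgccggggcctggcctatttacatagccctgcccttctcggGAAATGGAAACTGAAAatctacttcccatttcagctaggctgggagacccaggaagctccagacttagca
Egr2: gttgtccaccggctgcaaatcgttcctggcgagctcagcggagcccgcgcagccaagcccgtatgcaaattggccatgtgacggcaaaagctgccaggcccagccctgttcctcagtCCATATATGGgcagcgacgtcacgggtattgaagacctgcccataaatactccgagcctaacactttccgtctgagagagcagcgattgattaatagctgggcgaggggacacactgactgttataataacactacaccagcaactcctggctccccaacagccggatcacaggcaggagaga
Nfkbie: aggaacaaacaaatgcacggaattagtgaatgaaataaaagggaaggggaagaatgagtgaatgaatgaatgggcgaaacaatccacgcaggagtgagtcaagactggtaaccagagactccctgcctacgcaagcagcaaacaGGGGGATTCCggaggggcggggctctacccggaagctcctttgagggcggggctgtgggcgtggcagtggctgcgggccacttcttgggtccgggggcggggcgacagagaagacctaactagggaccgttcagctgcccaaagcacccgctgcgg
The motifs were the interferon-stimulated response element (a pair of GAAA repeats with any 2 bases between them), the kappa B motif, the CArG box bound by serum response factor, and the cyclic AMP response element, written TGACGTCA, each on both strands. Of 32851 promoters of this length, 3.443% held the first, 8.459% the second, 1.629% the third and 1.79% the fourth. Oas1a held 2 overlapping interferon-stimulated response elements just before the start. Nfkbie, which encodes an inhibitor of NF-kB, held 1 kappa B match. Egr2 has 5 listed starts, of which 4 hold a CArG box and 1 a kappa B match; the last of those with a CArG box is shown, chosen after the matches had been seen. The Irf7 window held no match. Ier2 is named without a sequence.

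The 2 arrays did not share one scale, and this touches the results that follow. The SD over probes was 0.33 at 0 h and 0.43 at 2 h, Pearson's r across probes was 0.85 and the slope of 2 h on 0 h was 1.11, so a gene far from 0 at 0 h tended to lie farther from 0 at 2 h. Of 67 genes with a 0 h level below -1, 20 were lower and 0 were higher. Of 217 genes between 0.5 and 1, 52 were higher and 11 lower. Over all probes, with or without a gene name, the positive side showed little of this. The median difference was -0.19 for 268 probes below -1 and 0.02 for 846 between 0.5 and 1. For 56 probes above 1 it was -0.003, with 13 higher and 18 lower. Values and counts with the trend on the mean level removed are therefore given beside many of the results. Position along the probe numbers mattered as well. In 9 of 50 stretches of 400 consecutive probe numbers the arrays correlated below 0.7, and there 16.3% of 3347 probes were higher, against 4.19% of 16077 elsewhere; the shares that were lower were 4.99% and 3.84%. The part of either pattern in the results was not tested.

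**Figure D1:**
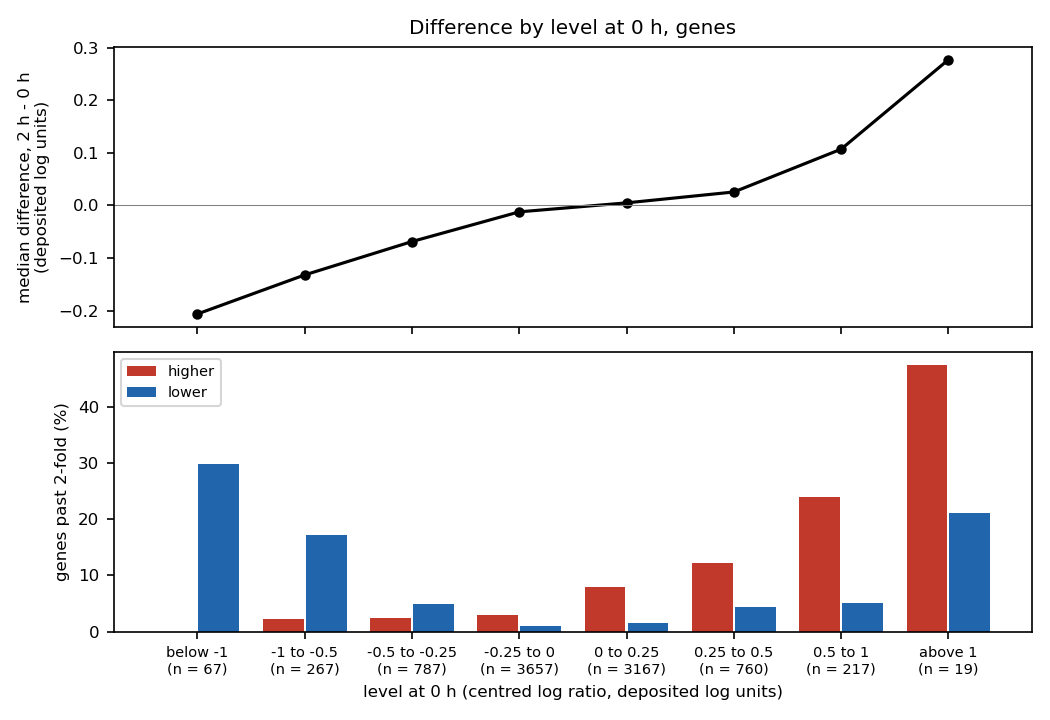
The upper panel plots the median difference (2 h minus 0 h, deposited log units) of genes binned by their level at 0 h, and the lower panel the percentage of genes past 2-fold in each direction, with the number of genes under each bin. The median ran from -0.21 in the lowest bin to 0.28 in the highest, which held 19 genes.

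**Figure D2:**
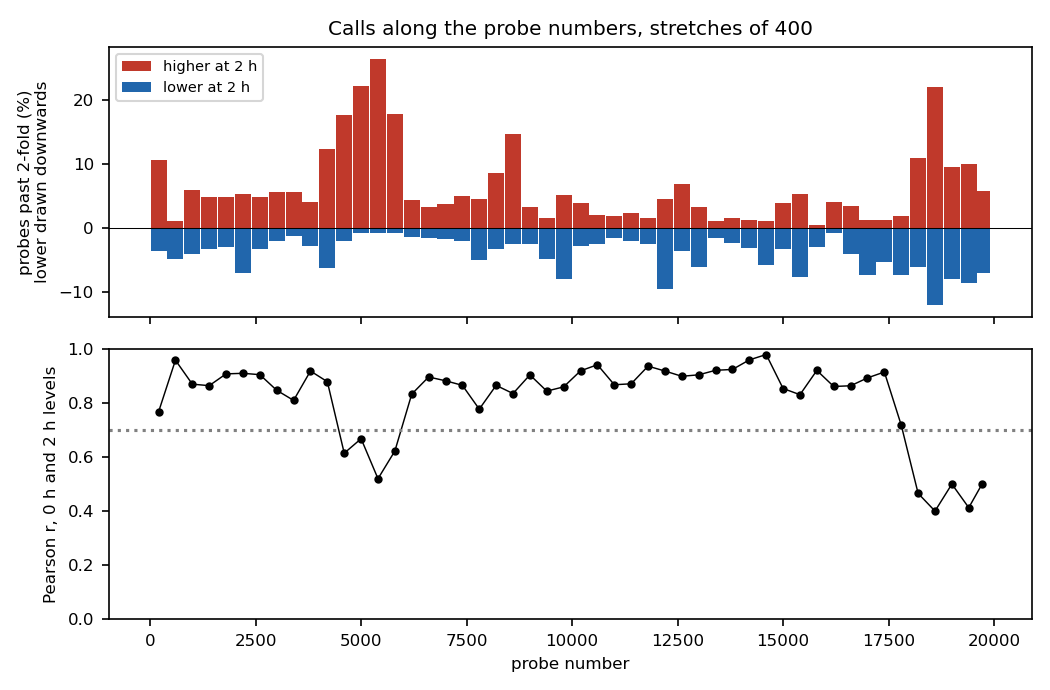
The upper panel plots, for each stretch of 400 probe numbers, the percentage of probes higher (upwards) and lower (downwards) at 2 h, and the lower panel Pearson's r between the 0 h and 2 h levels, with a dotted line at 0.7. The stretches under the line lie between probes 4401 and 6000 and from 18001 to the end.

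Over all genes, 542 were higher (6.06%) and 237 lower (2.65%), around a median difference of -0.01. Those 2 shares are the background for each list count below. Most of these calls rested on 1 probe: 452 of the higher and 188 of the lower genes had no second one. Of the genes with 2 or more probes, 65 (2.02%) were higher with every probe of one sign, and 46 (1.43%) lower. In 20 and 10 of them each single probe also passed the size rule. For scale, among 1967 genes with exactly 2 probes, 53.9% had both on one side of 0. The higher genes had median levels of 0.11 and 0.66 on the pair. On the 0.5, 7 and 21 h arrays their medians were 0.70, 0.00 and 0.15. The levels of 336 of 539 lay nearer the 0 h than the 2 h value at both later times, and 17 lay nearer the 2 h value at both. For the lower genes the medians were -0.18 and -0.59 on the pair, and -0.19, -0.23 and -0.29 on the 0.5, 7 and 21 h arrays. Of 228 of them, 128 lay nearer the 0 h value at both later times and 32 nearer the 2 h value. These later comparisons all use the same 0 h and 2 h arrays as the calls themselves.

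**Figure D3:**
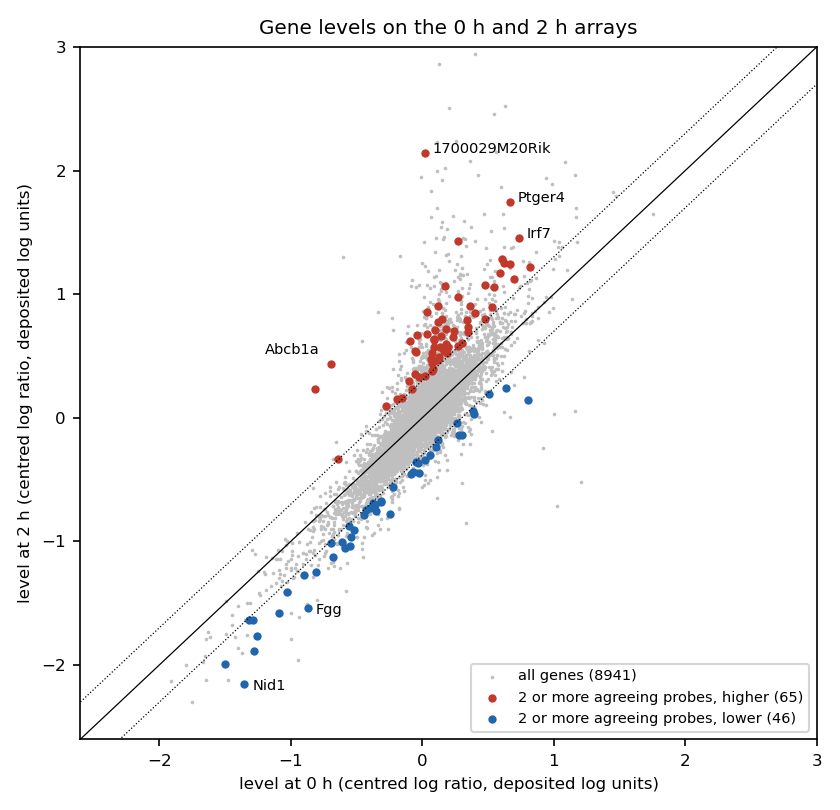
Each point is a gene, with its centred log ratio to embryo RNA at 0 h on the x axis and at 2 h on the y axis, in deposited log units; the solid line marks equal levels and the dotted lines a 2-fold difference. The 65 higher (red) and 46 lower (blue) genes with 2 or more agreeing probes include Ptger4 at 0.67 and 1.74 and Nid1 at -1.35 and -2.16.

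Among genes with agreeing probes, the prostaglandin E2 receptor gene Ptger4 had 3 probes, each past the size rule. Ptger4 couples to adenylyl cyclase and dampens cytokine output in macrophages. Its probes read 0.82, 0.60 and 0.58 at 0 h and 2.04, 1.70 and 1.49 at 2 h, so the lowest value at 2 h was above the highest at 0 h. The difference was 1.08 ± 0.16 (SD between 3 probes), and 0.61 with the level trend removed. On the other arrays Ptger4 averaged 0.10 after 0.5 h, 1.37 after 7 h and 0.10 after 21 h. The 3 probes are numbered 8251, 8480 and 8502. In the stretch from 8401 to 8800, which holds the last 2, 57 of 390 probes were higher and 10 lower. In the stretch from 8001 to 8400, which holds the first, 34 of 394 were higher and 13 lower. Tbxa2r, the thromboxane A2 receptor gene and another prostanoid receptor, had 1 probe, which went from 0.56 to 2.15 and later read 1.0 (7 h) and -0.07 (21 h); its difference of 1.59 became 1.04 without the trend. These receptors were the 2 members higher among 15 measured genes of prostanoid synthesis and reception (13.3%, against 6.06% of all genes). None of the 15 was lower, and the list's median was 0.00. Ptgs2, the inducible cyclooxygenase that LPS normally raises, went from 0.13 to -0.03.

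Irf7, the interferon regulatory factor that amplifies type I interferon production, had probes at 0.86 and 0.60 at 0 h that read 1.27 and 1.65 at 2 h. The difference was 0.72 ± 0.45 (SD between 2 probes) and 0.32 with the level trend removed. The second of these probes, number 4312, lies in the stretch from 4001 to 4400, where 49 of 400 probes were higher and 25 lower. Irf7 stood at 2.26 after 0.5 h, 0.81 after 7 h and 1.0 after 21 h. Steap3, an iron reductase of endosomes, differed by 0.63 ± 0.22 (SD between 2 probes), with probes moving from 0.45 to 1.24 and from 0.79 to 1.26. It was the 1 member higher among 19 genes of iron and haem handling, and with the trend removed the difference was 0.32. Abcb1a, a drug efflux pump, was higher by 1.13 ± 0.84 (SD between 2 probes); one probe moved from 0.12 to 0.66 and the other from -1.51 to 0.22. That second probe read 0.71 at 0.5 h and -0.09 at 21 h, so its 0 h value was far below its other readings. It had no value at 7 h. The difference of 0.49 against the median of the 0, 7 and 21 h arrays therefore rests on the first probe alone.

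Nr3c2, the mineralocorticoid receptor gene, differed by 0.57 ± 0.20 and Rbm34, an RNA-binding protein gene, by 0.58 ± 0.15 (each SD between 2 probes). The probes of both lie in the same stretch of probe numbers, 8401 to 8800, as 2 probes of Ptger4. Without the level trend the differences were 0.25 for Nr3c2 and 0.31 for Rbm34. P2ry6, a receptor for UDP that promotes phagocytosis in microglia, went from 0.82 to 1.22, but its difference of 0.40 became 0.05 without the trend.

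Several other genes of this set are known from testis. Acrv1, a protein of the sperm acrosome, was higher by 0.89 ± 0.41. Actl9, an actin-like protein of sperm, was higher by 0.59 ± 0.14, and the testis-specific kinase genes Tssk1 and Tssk2 by 0.39 and 0.52. The probes of Tssk1 differed by 0.38 and 0.39, but those of Tssk2 by 0.009 and 1.04. The largest difference of all agreeing genes, 2.12 ± 0.67 (SD between 2 probes), belonged to 1700029M20Rik, which is named for a clone of a testis library. Both of its probes, and both of Acrv1, Actl9, Tssk1 and Tssk2, lay in the stretches where the arrays correlated below 0.7. In all, 21 of the 65 higher genes had every probe there and 35 had at least 1, against 0 and 1 of the 46 lower genes. Names of RIKEN clones from testis libraries show the same placement. Of 247 such genes measured, 58 were higher; 57 of those were among the 216 with every probe in these stretches, and 0 of the 26 with no probe there were higher. Over all genes, 213 of 787 (27.1%) with every probe in these stretches were higher, against 311 of 7797 (3.99%) with none. That list of names was written after the values had been seen.

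Of the 46 genes lower at 2 h with agreeing probes, 12 had a level above 0 in unexposed macrophages and 19 lay below -0.5. Several are genes of liver, matrix and epithelia, tissues that the embryo reference holds. Fgg, the gamma chain of fibrinogen made by hepatocytes, read -0.74 and -1.0 at 0 h and -1.39 and -1.68 at 2 h. Its difference was -0.66 ± 0.02 (SD between 2 probes) and -0.45 without the level trend. Nid1, a basement membrane protein, differed by -0.80 ± 0.41, with probes moving from -1.22 to -1.73 and from -1.49 to -2.58. Itih3, a hyaluronan-binding plasma protein of liver, differed by -0.61 ± 0.37, and Cfi, the complement regulator factor I, by -0.49 ± 0.04. With the trend removed Nid1 stood at -0.53, Itih3 at -0.35 and Cfi at -0.33. Col5a1, a fibrillar collagen gene, differed by -0.49 ± 0.08, which became -0.26. Uros, an enzyme of haem synthesis, and Rpf2, a factor of large ribosomal subunit assembly, had levels of 0.02 and 0.30 at 0 h and differed by -0.37 ± 0.09 and -0.44 ± 0.04. Their values without the trend were -0.33 and -0.45.

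Of the 65 higher genes, 31 stayed past 2-fold under removal of the level trend, removal of the running median over probe numbers, quantile normalization and a baseline of the median of the 0, 7 and 21 h arrays, each applied alone. They include Ptger4, Abcb1a, Acrv1, Styxl1, the free fatty acid receptor gene Ffar4 and the kinetochore gene Cenpw, but not Irf7, Steap3, Nr3c2 or Rbm34. Of these 31, 24 had a probe in the low-correlation stretches. With those stretches left out, 16 of the 31 still had a value and 11 stayed past 2-fold. The 7 with no probe there were Mettl18, Abcb1a, Ptger4, Ffar4, Gimap3, Igsf23 and Cyc1. Every probe of Ptger4 and Abcb1a passed the size rule, though with the baseline of the 0, 7 and 21 h arrays Abcb1a rested on 1 probe. Others had 1 probe near 0: the probes of Mettl18 differed by 0.01 and 2.31, of Gimap3 by 0.03 and 0.87, and of Igsf23 by 0.09 and 0.71. Of the 46 lower genes, 7 stayed: Pcca, Rptn, Cfi, Usp2, Itih3, Fgg and Nid1. The probes of Rptn differed by -0.04 and -0.81.

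The single-probe genes with the largest differences were set beside the other arrays. Prl7b1, a placental prolactin family gene, went from 0.13 to 2.86 and read 0.00 at 7 h. Its probe lies in the same stretch, 4001 to 4400, as 1 probe of Irf7. Smpdl3b, a lipid-modifying membrane phosphodiesterase gene expressed in macrophages, went from 0.40 to 2.94 and read 0.27 at 7 h and 0.56 at 21 h. The amino acid transporter gene Slc43a2 went from 0.20 to 2.50 and read 2.68 at 0.5 h and 0.05 at 7 h. Of the 6 largest increases by 1 probe, those of Slc43a2, Dab1, 1700027J07Rik and Cdhr4 came from probes in the low-correlation stretches. On the lower side, the 0 h array stood alone for 4 genes. Vezf1, a zinc finger gene of blood vessel development, read 1.02 at 0 h and between -0.71 and -0.46 on the other 4 arrays. Slc3a1 read 1.21 at 0 h and -0.39 or less elsewhere, and Add1, which encodes a membrane skeleton protein, 0.92 at 0 h and -0.05 or less elsewhere. Espn read 1.16 at 0 h, 0.53 at 0.5 h and 0.05 at 2 h. Against the median of the 0, 7 and 21 h arrays their 2 h differences were -0.25 for Vezf1, -0.13 for Slc3a1, -0.19 for Add1 and 0.03 for Espn. Dnase1 and Mybpc1 were low on the 2 h array instead: Dnase1 read -0.86 there, and between -0.18 and 0.33 on the others.

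The LPS response was read by role, from receptors to products. Of 8 measured genes of LPS and bacterial recognition, 1 was higher and 0 were lower, and without the level trend 0 were higher. That gene was Tlr2, the receptor for bacterial lipoproteins, which went from 0.32 to 0.68 and stood at 0.30 after 0.5 h, 0.22 after 7 h and 0.61 after 21 h. Its difference of 0.36 became 0.27 without the trend and 0.23 under quantile normalization, both short of 2-fold. In the NF-kB list, 3 of 15 genes were higher and 0 lower, with a median of 0.13 against -0.01 over all genes, of which 6.06% were higher. Without the level trend 2 of the 15 were higher, and under quantile normalization 1, Nfkbie. Nfkbie went from 0.27 to 0.83 and read 1.68 at 0.5 h and 1.41 at 7 h. Map3k8, the kinase that links NF-kB1 p105 to the ERK pathway, went from 0.25 to 0.62. Birc3, an NF-kB target that blocks apoptosis, went from 0.16 to 0.47, a difference of 0.31 that became 0.26 without the trend. Nfkbia, the inhibitor usually resynthesised early after LPS, went from 0.30 to 0.43, which is short of 2-fold. All 4 rested on 1 probe each.

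Among 21 immediate early transcription factors 3 were higher (14.3%, against 6.06% of all genes), 0 were lower, and the median was 0.00. Egr2, a zinc finger factor, went from 0.30 to 0.98, after 1.43 at 0.5 h and before 0.13 at 7 h. Ier2 went from 0.13 to 0.71, after 1.46 at 0.5 h and before -0.08 at 7 h. Junb, an AP-1 subunit, went from 0.29 to 0.69 and read 0.21 at 7 h. The 7 h levels of all 3 genes lay below their 0 h levels. Without the level trend the 2 h differences were 0.53 for Egr2, 0.51 for Ier2 and 0.31 for Junb. Other members of the family did not pass the size rule: Fos differed by 0.17, Atf3 by 0.29 (-0.02 without the trend) and Jun, with 4 probes, by -0.01 ± 0.14 (SD between probes).

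No measured cytokine, chemokine or effector gene was higher, though 1 effector was without the level trend. Of 17 cytokine and chemokine genes 0 were higher and 3 lower, with a median of -0.04. Those 3 were Cxcl12, a homeostatic chemokine, at -0.51, Ccl24 at -0.42 and Il1a, an inflammatory cytokine of activated macrophages, which went from 0.19 to -0.12. Ccl24 read 0.34 at 0 h and between -0.22 and 0.08 on the other 4 arrays. Against the median of the 0, 7 and 21 h arrays Ccl24 differed by -0.15. With that baseline 1 of 16 cytokine and chemokine genes was lower, and Il1a, which had no value at 7 h, was not among the 16. Il1a read -0.59 at 0.5 h and -0.07 at 21 h, so its 0 h level lay above its other readings. Cxcl10 differed by -0.03, Ccl5 by -0.16 and Il1rn by 0.20. Of 22 inducible effectors 0 were higher and 3 lower: the adhesion molecule gene Vcam1 at -0.49, tissue factor (F3) at -0.39 and the acute phase gene Saa3 at -0.37. Vcam1 and F3 lay below -0.6 at 0 h, and without the level trend they stood at -0.31 and -0.22. Saa3 read 0.30 at 0 h and between -0.07 and 0.09 on the other 4 arrays. Sod2, the mitochondrial superoxide dismutase that NF-kB induces, had 4 probes and differed by -0.20 ± 0.13 (SD between probes). Cytokine receptors included 2 higher genes of 15 (13.3%, against 6.06% of all genes) and 0 lower. The higher genes were Tnfrsf21 at 0.42 and the TNF receptor gene Tnfrsf1b at 0.38. Of a panel of 33 genes classically induced by LPS or central to sensing it, 15 were measured; 1 was higher (Tlr2), 2 were lower (Il1a and Saa3) and 12 lay within 2-fold, with a median of 0.01. Cd14, Tlr4 and Tnf are in that panel and were not analysed here. Of 34 MAP kinase genes and dual-specificity phosphatases, Map3k8 was higher and 2 were lower. Dusp19 differed by -0.43. The 2 probes of Map2k2, a kinase that activates ERK, disagreed in size: one moved from 0.73 to -0.03 and the other from -0.17 to -0.25.

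Genes of the interferon response were read next. Of 25 interferon-stimulated antiviral genes 2 were higher (8%, near the 6.06% of all genes), 0 were lower, and the median was 0.02. Without the level trend 1 was higher and 2 lower. Oas1a, whose product makes the 2′-5′ oligoadenylates that activate RNase L, went from 0.69 to 1.38 and read 0.58 at 7 h and 0.98 at 21 h. Its difference of 0.69 became 0.33 without the level trend. Ifi204 went from 1.04 to 1.38, but this difference turned to -0.12 without the trend. Ifit1, a strongly interferon-induced gene, differed by 0.01 ± 0.09 (SD between 2 probes), or -0.21 without the trend. Irf7 and Irf5 were the 2 higher genes of 17 IRF and STAT genes (11.8%, against 6.06% of all genes), and 0 were lower. Irf5, a factor downstream of Myd88, differed by 0.33 (0.16 without the trend), and Irf1 by 0.02. Among 5 interferon-inducible GTPases, which act on vacuoles of intracellular microbes, Tgtp1 was higher at 0.46, Gbp2 at 0.40 and Igtp at 0.33 ± 0.25 (SD between 2 probes), while Irgm2 was lower at -0.35. Without the level trend these became -0.12 for Tgtp1, 0.15 for Gbp2, 0.18 for Igtp and -0.39 for Irgm2. The median of these 5 was 0.33, and -0.05 both under quantile normalization and without the level trend, so its direction depends on the scale.

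**Figure D4:**
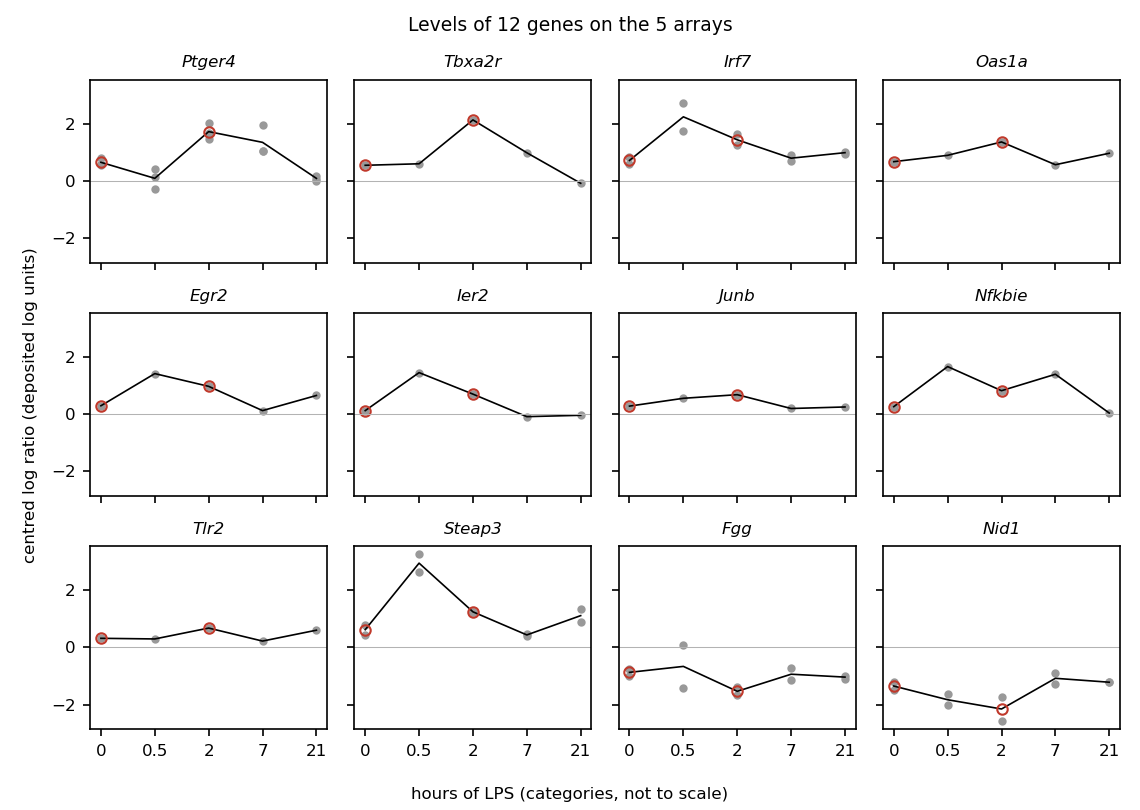
Centred log ratios to embryo RNA (deposited log units) of 12 genes on the 5 arrays, with hours of LPS as categories; grey points are single probes, the line joins gene means and red circles mark the 0 h and 2 h arrays. Egr2, Ier2, Nfkbie, Irf7 and Steap3 were higher at 0.5 h than at 2 h, while Ptger4 and Tbxa2r peaked at 2 h.

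The 0.5 h array used in these side-by-side values stood apart from the rest: its 55 globin probes had a median of -0.11, where the other 4 arrays lay between -1.70 and -1.43. Its levels are given as read.

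In antigen handling, 4 of 14 MHC class I presentation genes were higher (28.6%, against 6.06% of all genes) and 0 lower, with a median of 0.07. Psme2, an activator subunit of the immunoproteasome, rested on probes that disagreed in sign, one moving from 0.23 to 0.14 and the other from 0.55 to 1.60. Psmb9, an interferon-induced catalytic subunit, had probes moving from 0.55 to 0.66 and from 0.84 to 1.59, a difference of 0.43 ± 0.45 (SD between 2 probes). Psmb10 differed by 0.33 and H2-Q8 by 0.38. Without the level trend 0 of the 14 genes stayed higher, and H2-Q8 stood at -0.10. Of 10 MHC class II genes 0 were higher and 2 lower, H2-Eb1 at -0.37 and H2-DMa at -0.34 ± 0.58 (SD between 2 probes), whose probes differed in sign. Of 23 genes of Fc receptors, complement and phagocytosis 6 were higher and 1 lower (over all genes 6.06% and 2.65%), but without the level trend 1 was higher and 2 lower. Clec4n, the Dectin-2 receptor for fungal mannans, went from 0.27 to 1.14 on a probe in a low-correlation stretch. Fcgr1, the high-affinity IgG receptor, went from 1.17 to 1.70 and read 1.71 at 7 h and 1.09 at 21 h, and its difference of 0.53 became -0.07 without the trend. Fcer1g, the signalling chain it shares with other Fc receptors, went from 0.55 to 0.95, and its 0.40 became 0.19.

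The macrophage markers share members with that list: Fcgr1, Fcer1g and Lilrb4a are in both, so the 2 counts are not separate. Of 13 measured markers 4 were higher (Fcgr1, Fcer1g, Lilrb4a and Laptm5) and 0 lower, a higher share of 30.8% against 6.06% of all genes. The marker median was 0.09, which was -0.11 without the level trend and -0.25 under quantile normalization. Lilrb4a went from 1.47 to 1.80 and Laptm5 from 1.06 to 1.38, differences that became -0.40 and -0.15 without the trend. In that setting 0 of the 13 markers were higher and 3 lower, so the direction depends on the scale. In bulk RNA, a change in the share of a cell type and a change per cell cannot be told apart. The part of the marker values in the other lists was not tested. Among markers of other blood cells, 7 measured neutrophil genes had levels between -0.58 and 0.19 at 0 h and between -0.70 and 0.23 at 2 h, and 0 of them passed the size rule. Of 6 B cell markers 1 was lower, the antigen receptor chain gene Cd79b at -0.47, and of 6 T and NK cell markers 0 passed.

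Lists of genes that mark embryonic tissue were mixed. Of 47 collagens and matrix genes 0 were higher and 6 lower, with a median difference of -0.12 that was -0.04 without the level trend, where 2 were lower. Col12a1 differed by -0.58, Mfap2 by -0.57 and Lox, the collagen cross-linking enzyme, by -0.53. Col1a1 differed by -0.49 ± 0.40 (SD between 2 probes). Without the trend these became -0.36 for Col12a1, -0.43 for Mfap2, -0.27 for Lox and -0.22 for Col1a1. Of 38 genes of fetal liver plasma proteins and cytochrome P450 enzymes 3 were higher and 7 lower, with a median of -0.09. Without the trend these counts were 2 and 2, with a median of -0.04. The 3 higher were all cytochrome P450 genes: Cyp4f18 at 0.63, Cyp2c55 at 0.50 and Cyp2e1 at 0.48. Another, Cyp2f2, was among the lower, at -0.38. Afp, the fetal plasma protein, differed by -0.32 ± 0.27 (SD between 2 probes), which became -0.07 without the trend. Of 17 globins and erythroid genes 0 were higher and 3 lower. The embryonic globins Hbb-y, with 5 probes, and Hbb-bh1, with 3, differed by -0.37 ± 0.26 and -0.37 ± 0.16 (SD between probes), and the erythrocyte carbonic anhydrase gene Car1 by -0.64, which became -0.36 without the trend. Globin genes are close in sequence, and cDNA probes may not separate them. Mest, an imprinted fetal growth gene, had 4 probes, all lower at 2 h, and differed by -0.39 ± 0.19 (SD between probes), or -0.17 without the trend. It was the 1 imprinted gene of 14 past the size rule. Other lists of this kind held calls on both sides or few: 4 higher and 5 lower of 75 keratins and skin barrier genes, 1 and 1 of 44 developmental transcription factors, 3 and 5 of 34 kallikrein and Prss proteases, 0 and 2 of 40 muscle genes and 0 and 2 of 29 neuronal genes. The medians of the keratin and muscle lists were -0.04 and -0.08, and 0.02 and 0.03 without the trend.

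**Figure D5:**
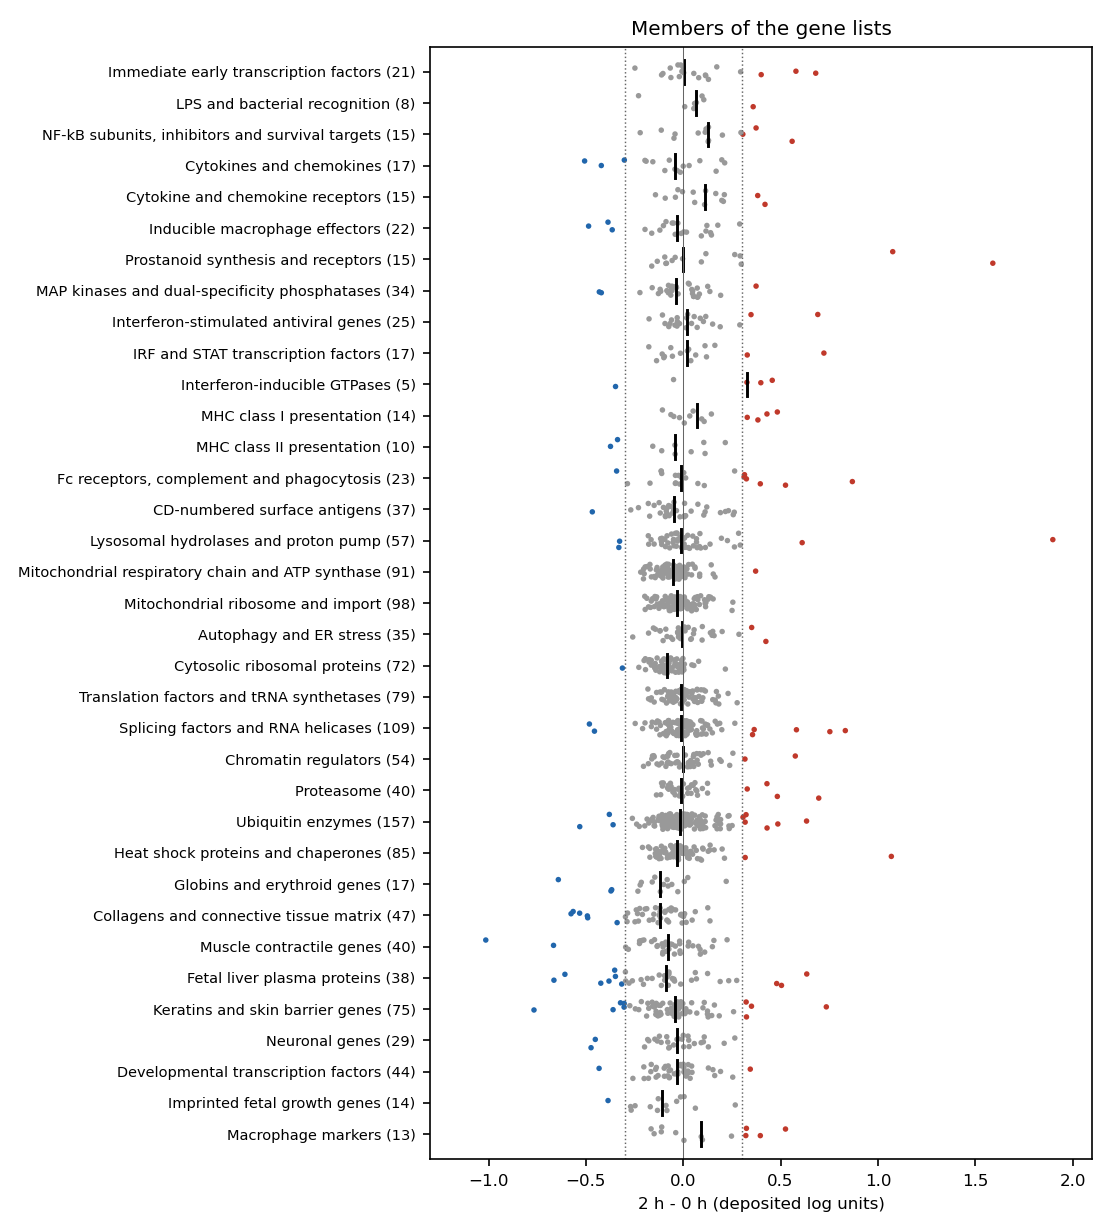
Each point is a gene's difference (2 h minus 0 h, deposited log units) in the list named at the left, with the number measured in brackets; black bars are medians, dotted lines a 2-fold difference, and red and blue mark genes past it. The NF-kB list had its median at 0.13, collagens and matrix at -0.12, and no mitochondrial ribosome or translation gene passed the lines.

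Lists of housekeeping machinery held few genes past the size rule. Of 98 genes of mitochondrial ribosomes and import, 0 were higher and 0 lower, with values from -0.20 to 0.25. The same counts, 0 and 0, held for 79 translation factors and tRNA synthetases, for 22 genes of sterol synthesis and efflux and for 22 histones. Of 91 respiratory chain genes 1 was higher: Cyc1, the cytochrome c1 gene of complex III, which went from -0.28 to 0.09. Its difference was 0.37 ± 0.34 (SD between 2 probes). Of 72 cytosolic ribosomal protein genes 65 lay below 0, with a median of -0.08 that was -0.03 without the level trend, and Rpl3l, the muscle form of Rpl3, was the 1 past the size rule, at -0.31. Among 57 lysosomal genes 2 were higher and 2 lower. Man2b1, the lysosomal alpha-mannosidase, went from 0.53 to 1.14, while Ctsq, a placental cathepsin, went from -0.60 to 1.30 on 1 probe. That probe also lies in the stretch from 4001 to 4400. Ctsk, the cathepsin of osteoclasts, was lower, at -0.33.

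Some families held single genes far from the rest. Of 136 solute carriers 14 were higher (10.3%) and 4 lower (2.94%), against 6.06% and 2.65% of all genes, with a median of 0.00. Slc43a2 differed by 2.30, the sulphate transporter gene Slc13a1 by 1.77 and the vesicular nucleotide transporter gene Slc17a9 by 1.06. The probes of Slc43a2 and Slc17a9 lay in low-correlation stretches, and that of Slc13a1 did not. Pcx, pyruvate carboxylase, which feeds the tricarboxylic acid cycle, went from 0.14 to 1.55 and read between -0.15 and -0.11 on the other 3 arrays. Me2, the mitochondrial malic enzyme, went from 0.34 to 1.16. They were the 2 higher genes of 25 in that cycle's list, whose median was -0.06. Of 86 cell cycle genes 5 were higher (5.81%, close to the 6.06% of all genes) and 0 lower. These were the centromere protein genes Cenph at 0.75, Cenps at 0.66, Cenpk at 0.65, Cenpl at 0.42 and Cenpw at 0.41 ± 0.13 (SD between 2 probes). Centromere protein genes short of 2-fold were not counted. Both Cenph and Cenpk rested on a probe in a low-correlation stretch, and 1 probe of Cenpw lay in one. With such stretches left out, 3 of 81 cell cycle genes were higher. Of 53 DNA replication and repair genes 2 were higher and 1 lower. The helicase subunit genes Gins2 and Gins1 stood on opposite sides, at 0.34 ± 0.32 (SD between 2 probes) and -0.34 (1 probe).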

How the data were processed

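Arrays of macrophage RNA against whole embryo RNA were deposited as 1 table of log ratios per probe; per the labels, cDNA was labelled by amino-allyl chemistry with Cy3. The scanner, background correction, normalization, log base and dye direction are not stated in the sources used. The deposited log10 reading is an assumption, made from the size of the globin ratios. Spot intensities were not used here, so how far signals stood over background cannot be given. The number of arrays limits the precision.

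Probes numbered 19828, of which 19648 had a value at 0 h and 19596 at 2 h. Before centring the medians were 0.04 and 0.05. In the platform annotation 14759 probes had 1 gene symbol, 170 several and 4899 none here; 14628 symbols were updated through Entrez identifiers to GRCm38.p6. Genes came from probes with 1 symbol. Motifs were searched in RefSeq promoters of that build.

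The gene lists and the members were chosen with earlier results of these data known. Genes were named by rule: the 12 agreeing genes in each direction whose probe nearest 0 was largest, the 6 largest single-probe genes, members of each list past the size rule (the 4 largest where more, with any of agreeing probes) or, in a list without any, the highest and lowest, and the panel. The text prints examples. Mettl18 is given by its probe differences only, and other large values outside the rule are not described. P2ry6, Tssk1, Tssk2, Ffar4 and the genes listed as staying past 2-fold were chosen after their values were seen. Alternatives covered centring, scaling of both arrays to one median absolute deviation, quantile normalization, a lowess trend (span 0.3), a running median over 400 probe numbers, joining of probes, missing values, baseline, symbols, size rule and log base. Leaving out low-correlation stretches was chosen after seeing the data. The steps were tested on simulated data. Python 3.11.15, numpy 2.4.6, pandas 2.3.3, statsmodels 0.14.6 and matplotlib 3.10.9 were used.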

Additional observations from a re-analysis of the deposited data

How the results depend on the processing

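No paired analysis was possible because each group held 1 array, and no replicate could be left out. Of 56 recomputed counts, 37 stayed within 1.5 times the value reported. The 542 higher genes became 359 with only probes measured on all 5 arrays and 323 with low-correlation stretches left out; a 1.5-fold rule gave 1070, a 3-fold rule 271 and base 2 gave 60. The 237 lower genes became 772, 67 and 6 under the last 3. The 65 higher genes with agreeing probes became 35 under quantile normalization, 33 with probes on all 5 arrays, 30 with low-correlation stretches left out, and 154, 30 and 5 under the 3 size rules. The 46 lower became 18 after scaling to one median absolute deviation, 22 with the level trend removed, and 163, 9 and 0 under the size rules. Another size limit changes these counts by construction. Fewer probes leave fewer genes, 8154 of 8941 with the low-correlation stretches left out. In those stretches 16.3% of probes were higher, against 4.19% elsewhere. For settings other than the size limit, the cause was not tested.

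Of 630 list medians, 626 moved by less than the pooled SD between probes (0.178), and of those past the size rule 2 changed sign, both of the interferon-inducible GTPases, at -0.051 under quantile normalization and -0.048 without the level trend. Counting medians of any size, 86 of the 630 changed sign, and 36 of the 63 lists did so under some setting. Among these lists were MHC class I presentation (0.07 to -0.07 without the trend), macrophage markers (0.09 to -0.11) and muscle genes (-0.08 to 0.03). Of 2042 values of named genes 1795 moved by less than that SD, 227 by more, and 20 values of genes past the size rule changed sign; at any size 35 did, Atf3 (0.29 to -0.02 without the trend) and Ifit1 (0.01 to -0.21) among them. Quantile normalization and trend removal turned Fcgr1 (-0.25 and -0.074), H2-Q8 (-0.25 and -0.10), Ifi204 (-0.27 and -0.12), Laptm5 (-0.34 and -0.15), Lilrb4a (-0.59 and -0.40) and Tgtp1 (-0.31 and -0.12); scaling turned Lilrb4a to -0.0065. The baseline of the median of the 0, 7 and 21 h arrays turned Arhgap29 (-0.058), Arpc4 (-0.036), Espn (0.028), Krtap3-2 (-0.012), Map2k2 (0.033) and Myo5a (-0.0040), and probes on all 5 arrays turned Fbxo7 (-0.12). The cause was not tested.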

Other observations

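Probes without a single gene symbol, which entered no list above, held proportionally more calls than named probes. Of 4936 with a value on both arrays, 404 (8.18%) were higher and 270 (5.47%) lower at 2 h. Of the 14488 named probes, 816 (5.63%) were higher and 514 (3.55%) lower.

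Adult globin genes gave many probes of one family on these arrays. The 21 probes of Hbb-b1 had a mean difference of -0.22 ± 0.27 (SD between probes), with 17 below 0, and the 15 of Hba-a1 one of -0.15 ± 0.18, with 13 below 0. Neither passed the size rule.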
